A study of Mus musculus with 6 samples.

Results

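The interleukin-1 (IL-1) family was followed in aortic arteries of mouse fetuses through 10 genes: the ligands Il1a, Il1b, Il18 and Il33, the inhibitors Il1rn, Il1r2 and Il18bp, and the receptor chains Il1r1, Il1rap and Il1rl1. Its members were all non-control probes that the array design names after these genes, which gave 14 of 55681 probes and 10 of 34797 gene names. RNA came from fetuses of C57BL/6 dams that carried no working Nod1 allele (Nod1 -/-) and had been mated with Nod1 +/- males. At stage E18.5, late in gestation, every dam received 500 µg of FK565, a synthetic ligand of the peptidoglycan sensor NOD1, under the skin, and fetal vessels were taken 6 h later, so all arrays come from ligand-exposed litters and there is no group without the ligand. The groups were 3 arrays of Nod1 +/- and 3 arrays of Nod1 -/- fetuses, which the design text calls littermates, and the question was which transcripts of the fetal vessel differ with its own Nod1 allele. The labels do not say whether each array held a single fetus, and the p-values therefore cover only the spread among the 6 arrays, which may be technical. Nor do they give a slide position: slide row is a digit in the name of each scan, taken as such here. All Nod1 +/- arrays and Nod1 -/- replicate 3 were in row 2. Nod1 -/- replicates 1 and 2 were in row 1, so row and genotype are largely confounded.

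IL-1 ligands are alarm cytokines. IL-1 alpha and IL-1 beta bind the receptor chain IL1R1, which then recruits the shared chain IL1RAP and signals through MYD88 and IRAK kinases to NF-kB. IL-33 works in the same way through its own receptor and the shared chain, and IL-18 through receptor chains of its own. The family is held in check by a receptor antagonist (Il1rn), a decoy receptor that cannot signal (Il1r2), a binding protein that captures IL-18 (Il18bp) and soluble receptor forms. IL-1 beta and IL-18 are made as inactive precursors that inflammasome caspases cleave, and vascular endothelium is a classical target of IL-1, answering with adhesion molecules and chemokines.

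Levels are given as log2 signal minus the 75th percentile of the array's signals, so 0 means a signal at that percentile and a difference of 1 means a 2-fold change. Probes differ in brightness, so levels are compared between arrays and never between genes. Differences are Nod1 +/- minus Nod1 -/-, with standard error (SE) and the adjusted p of limma over all 21478 genes tested, and means carry their SD (n = 3 arrays). The scanner software marks each spot as well above background or not, and a probe was tested when this held on at least 3 of the 6 arrays. That left 9 of the 14 probes and 8 of the 10 genes, with Il1a and Il1rn untested. Positions are those the files give for mm9. The place of a probe within its gene is not analysed here.

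Il1rl1 and Il1rap were each read by 3 probes, not all against the same transcript, and the results below turn on which transcript a probe reads. The first 30 bases of each 60-base probe are shown for this reason, 5′ to 3′, with no part marked by capitals. The Il1rl1 variant NM_001025602 encodes the membrane receptor for IL-33 and NM_010743 its soluble decoy form. For Il1rap, NM_008364 encodes the membrane chain and NM_134103 a soluble form.
Il1rl1, NM_010743, chr1:40504769-40504828, plus strand: ctctgtaacaggatcttttgtctagatttc
Il1rl1, NM_001025602, chr1:40520014-40520073, plus strand: ccttacccaaattgccattacagtcgagca
Il1rl1, NM_001025602, chr1:40522187-40522246, plus strand: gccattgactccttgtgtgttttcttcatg
Il1rap, NM_134103, chr16:26701498-26701557, plus strand: gatgttgtcaacgcctttgtttctaaatgt
Il1rap, NM_008364, chr16:26716515-26716574, plus strand: catacatctttcagtagtcattggcaaaat
Il1rap, ENSMUST00000096129, chr16:26725291-26725350, plus strand: ccattttctttaaccagctcttccttgatc

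In Nod1 +/- aortas 5 of the 8 tested members were higher (Il1b, Il1r2, Il18bp, Il33 and Il1r1), Il18 was lower, and Il1rl1 and Il1rap did not pass the threshold. Over all tested genes 18.7% passed in either direction, 7.66% as higher and 11.0% as lower in Nod1 +/-. The median difference of the 8 members was 0.94, against -0.10 over all tested genes. Il1b passed the filter on dim probes through the Nod1 +/- arrays alone, the group where it was high. The same 5 members lay higher on every Nod1 +/- array than on any Nod1 -/- array, a pattern that 16.3% of tested genes showed upward, and Il18 lay lower without overlap, as 26.1% did.

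**Figure D1:**
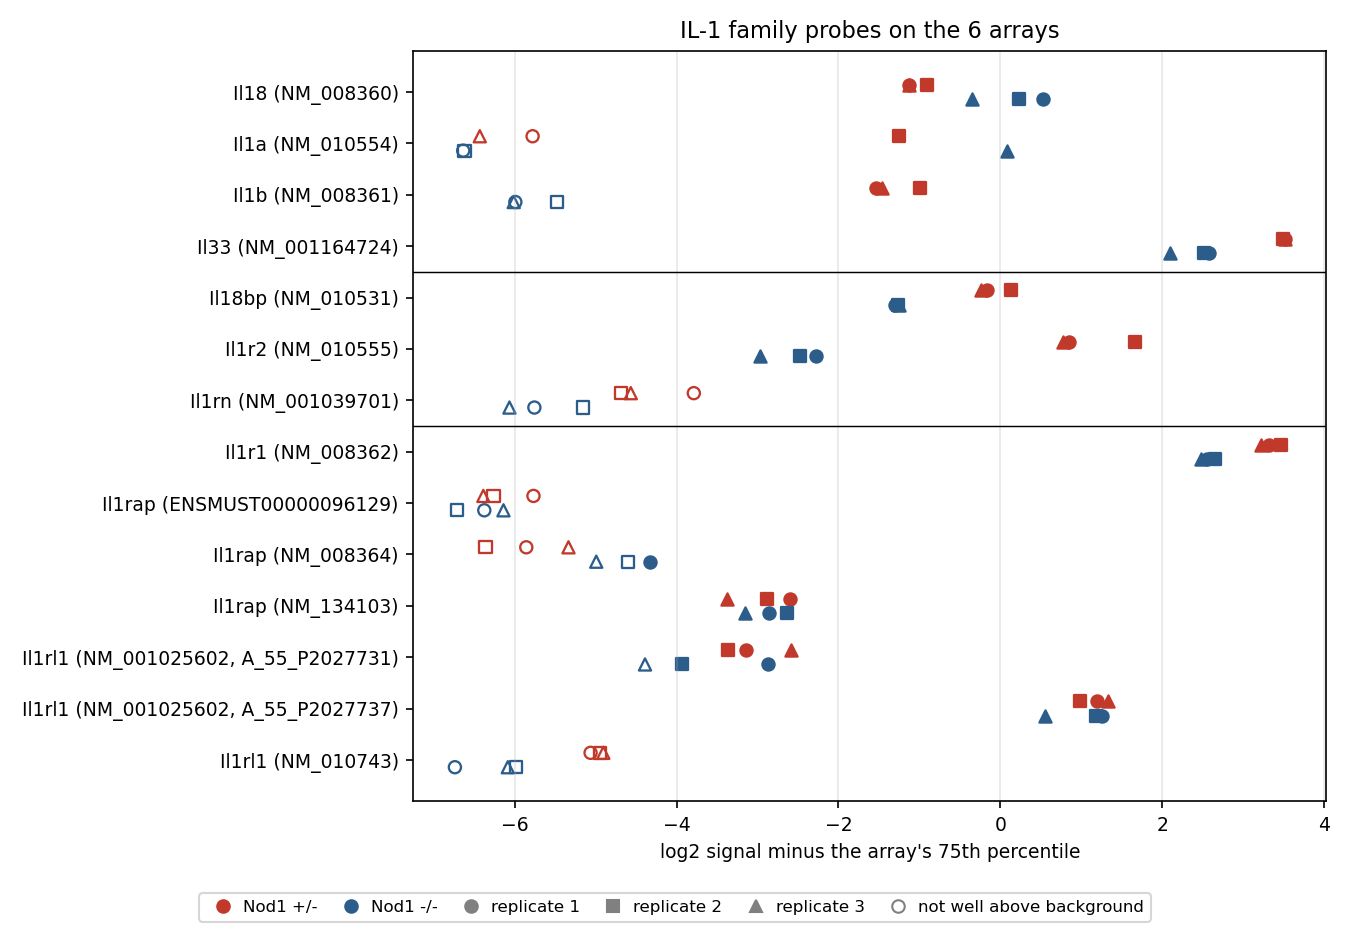
Log2 signal minus the array's 75th percentile for all 14 probes (rows, with the transcript each probe was designed for) on the 6 arrays, ligands at the top, inhibitors in the middle and receptor chains at the bottom. Red marks Nod1 +/- and blue Nod1 -/-, marker shape gives the replicate, and open markers are not well above background. The genotypes separate for Il1b, Il1r2, Il18bp, Il33, Il1r1 and, in the other direction, Il18, while Il1a is bright on a single array of each genotype.

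Among the ligands, Il1b changed most. Its probe (chr2:129190347-129190406, minus strand) lay at -1.53, -1.0 and -1.46 on Nod1 +/- replicates 1 to 3, and at -5.99, -5.47 and -6.01 on Nod1 -/- replicates 1 to 3. All Nod1 +/- arrays were well above background and no Nod1 -/- array was, so only a bound on the fold can be given. In the Nod1 +/- group Il1b was higher by at least 8.95-fold, which sets their mean against the lowest signal that still counts as well above background, or the array's own signal where higher (measured difference 4.50, SE 0.21; adjusted p = 0.000391). With another background correction, which adds an offset to dim signals, the difference was 1.68 and still passed.

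The Il1b probe was printed as 10 spots on every array, which shows how well a single array measured it. On the Nod1 +/- arrays 10, 9 and 10 spots were usable, and their SD within an array was 0.10, 0.11 and 0.11. On the Nod1 -/- arrays 8, 10 and 8 spots were usable, with SDs of 0.41, 0.66 and 0.29, and 2, 0 and 6 of them had been set to the software's stand-in value for dim spots. The highest Nod1 -/- spot, at -4.15 on replicate 2, lay below the lowest Nod1 +/- spot, at -1.72 on replicate 1. The spread of spots within the Nod1 +/- arrays was smaller than the SD of 0.29 between them.

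**Figure D2:**
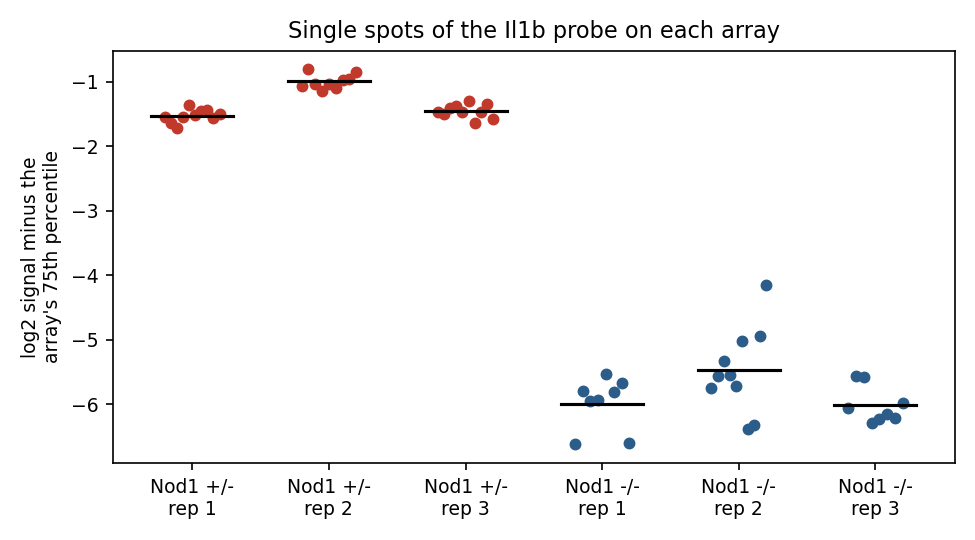
Each usable spot of the Il1b probe on the 6 arrays, as log2 signal minus the array's 75th percentile; black bars are the array means. Nod1 +/- spots (red) lie between -1.72 and -0.81, and Nod1 -/- spots (blue) between -6.63 and -4.15, where the readings spread more widely.

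Il33, an alarmin kept in the nuclei of endothelial and stromal cells, also rose. It was read by 1 probe (chr19:30035101-30035160, plus strand) at 3.51, 3.49 and 3.52 on the Nod1 +/- arrays and at 2.58, 2.52 and 2.09 on the Nod1 -/- arrays. The Nod1 +/- arrays were nearly equal (SD 0.01), Nod1 -/- replicate 3 was the lowest, and the groups did not overlap. Il33 rose 2.16-fold in Nod1 +/- aortas (difference 1.11, SE 0.15; adjusted p = 0.00669).

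Il18, an inducer of interferon gamma that many epithelial cells and macrophages hold as a stored precursor, moved the other way. Its probe (chr9:50389761-50389820, plus strand) lay at -1.13, -0.90 and -1.13 on the Nod1 +/- arrays and at 0.52, 0.23 and -0.35 on the Nod1 -/- arrays. All 6 arrays were well above background, and the Nod1 -/- arrays spread over a wider range, with replicate 3 nearest to the Nod1 +/- arrays. Il18 was 2.28-fold lower in Nod1 +/- aortas (difference -1.19, SE 0.23; adjusted p = 0.0201). The call was lost on leaving out replicate 1 of Nod1 +/- (adjusted p = 0.0626), its replicate 3 (0.0517) or replicate 2 of Nod1 -/- (0.0803), without the filter on dim probes (0.059) and without both first replicates (0.128), and limma's adjusted p ranged from 0.00697 to 0.128 over 19 alternatives. Blocking on slide row gave -0.70 (adjusted p = 0.109), an estimate in which Nod1 -/- is represented by replicate 3 only, because Nod1 -/- replicates 1 and 2 had row 1 to themselves. Blocked in the same way, Il1b (4.68), Il1r2 (4.06), Il33 (1.42) and Il18bp (1.16) passed.

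Il1a, the IL-1 ligand that is active without cleavage, was not tested, because its probe (chr2:129125994-129126053, minus strand) was well above background on 2 arrays only. It lay at -5.78, -1.25 and -6.43 on Nod1 +/- replicates 1 to 3 and at -6.64, -6.62 and 0.08 on Nod1 -/- replicates 1 to 3. The bright arrays were thus Nod1 +/- replicate 2 and Nod1 -/- replicate 3, and on the other 4 the software had set its stand-in value for dim spots, so those have no order. On both bright arrays the pixels of the single Il1a spot were uneven, with a coefficient of variation of 57.0% and 72.6%. Spots within 20% of the same raw brightness had a median of 19.0% and 16.3% there, and 99.0% and 99.8% of them were more even than the Il1a spot. On the 4 dim arrays its coefficient of variation lay between 15.3% and 19.9%. The software marked neither spot as an outlier. The summed signal of 9 epithelial markers, in multiples of the 75th percentile, ranged from 15.0 to 24.6 on the Nod1 +/- arrays and from 18.6 to 23.3 on the Nod1 -/- arrays, and that of 6 mesothelial markers from 11.3 to 28.0 and from 14.5 to 19.8. Both sums were highest, within each genotype, on the array with the bright Il1a spot. Within each genotype Epcam, Cdh1, Krt8, Krt18, Krt19 and Dsp were highest on the bright array (Krt18 at 2.26 and 2.86). The other epithelial markers did not follow in both genotypes. Krt14 was highest on Nod1 +/- replicate 2 (-0.50) but lowest on Nod1 -/- replicate 3 (-1.63). Trp63 was lowest on Nod1 +/- replicate 2 (2.08) but highest on Nod1 -/- replicate 3 (2.56). Krt5 was highest on the bright array of neither genotype. Cdh1 was well above background on 1 Nod1 +/- array only. Krt8 and Krt19 are in both lists, and the epithelial adhesion gene Epcam and the basal keratin gene Krt5 were not well above background on any array. The part of either in the Il1a readings was not tested. No genotype difference can be read for Il1a from these arrays.

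Of the 3 inhibitors, Il1r2 and Il18bp rose and Il1rn could not be tested. Il1r2, the decoy receptor that binds IL-1 without signalling, showed the largest difference that was measured on both sides. Its probe (chr1:40180014-40180073, plus strand) lay at 0.85, 1.66 and 0.78 on the Nod1 +/- arrays and at -2.28, -2.48 and -2.96 on the Nod1 -/- arrays. All 6 arrays were well above background, and Nod1 +/- replicate 2 was the highest, as it was for Il1b. Il1r2 rose 12.7-fold (difference 3.67, SE 0.29; adjusted p = 0.00152), and limma's adjusted p lay between 0.000266 and 0.0202 over 19 alternatives.

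Il18bp, whose secreted product neutralises IL-18, was read at chr7:109164100-109164159 (minus strand). It lay at -0.17, 0.13 and -0.23 on the Nod1 +/- arrays and at -1.30, -1.27 and -1.25 on the Nod1 -/- arrays, where the SD was 0.02. The groups did not overlap, and Il18bp rose 2.27-fold (difference 1.18, SE 0.12; adjusted p = 0.00305). So the ligand Il18 was lower and the gene for its inhibitor higher in Nod1 +/- aortas. With both first replicates left out, the adjusted p of Il18bp was 0.0544 and that of Il33 0.0619.

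Il1rn, the receptor antagonist, was not well above background on any of the 6 arrays, so it has no test and no fold. Its probe (chr2:24205094-24205153, plus strand), which the files assign to 3 RefSeq transcripts, lay at -3.79, -4.69 and -4.57 on the Nod1 +/- arrays and at -5.76, -5.16 and -6.06 on the Nod1 -/- arrays. All Nod1 +/- values lay above all Nod1 -/- values, but both groups were in the range where the scanner software does not separate signal from background. Without the filter on dim probes limma gave an adjusted p of 0.124 over all probes.

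**Figure D3:**
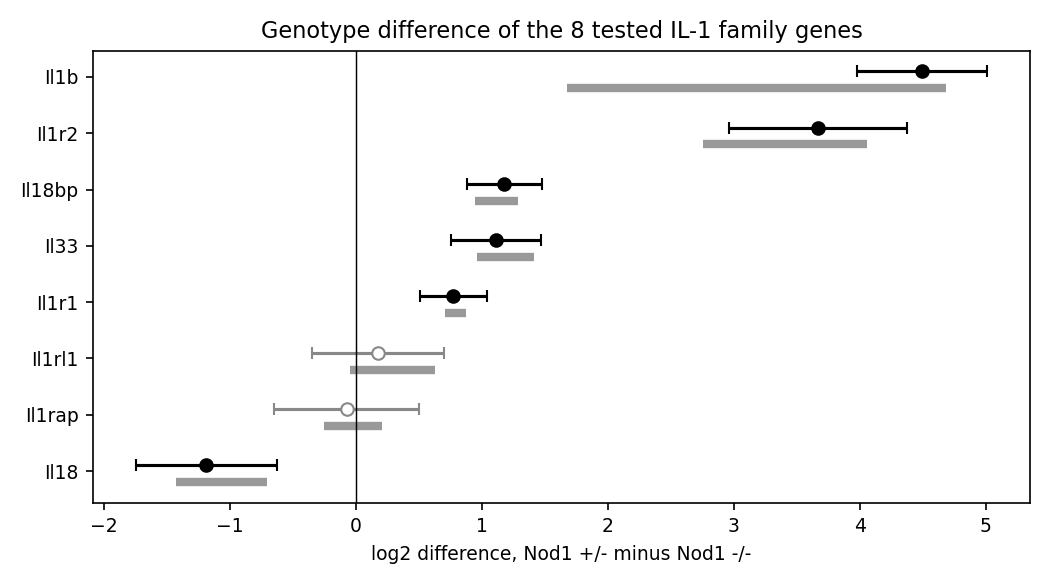
Log2 difference between genotypes for the 8 tested members (points, with 95% confidence intervals from limma); filled points passed an adjusted p of 0.05 and open points did not. Grey bars give the range over 19 alternative analyses, which for Il1b reaches down to 1.68 and for Il1rap and Il1rl1 crosses 0.

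Of the receptor chains, only Il1r1 passed the threshold among the 3 tested. Il1r1, the signalling receptor for both IL-1 ligands (chr1:40372667-40372726, plus strand), lay at 3.32, 3.47 and 3.22 on the Nod1 +/- arrays and at 2.55, 2.66 and 2.48 on the Nod1 -/- arrays. The groups were tight and did not overlap, and the rise was 1.71-fold (difference 0.77, SE 0.11; adjusted p = 0.00803). Its difference stayed between 0.71 and 0.88 over 19 alternatives, but its adjusted p by limma was 0.0507 when blocked on slide row and 0.108 with both first replicates left out.

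Il1rap, the chain that IL-1 and IL-33 receptors share, did not pass on the 1 probe that could be tested. That probe reads the soluble variant NM_134103 and lay at -2.60, -2.88 and -3.38 on the Nod1 +/- arrays and at -2.86, -2.63 and -3.16 on the Nod1 -/- arrays. The groups overlapped (difference -0.07, 95% confidence interval -0.65 to 0.50; adjusted p = 0.852), and the sign changed with the setting. The probe of the membrane variant NM_008364 lay at -5.86, -6.36 and -5.34 on the Nod1 +/- arrays and at -4.32, -4.60 and -4.99 on the Nod1 -/- arrays. It was well above background on Nod1 -/- replicate 1 alone, and 2 of the 3 Nod1 +/- readings were the software's stand-in value, so no fold can be given (adjusted p = 0.123 by limma without the filter on dim probes). The third Il1rap probe was dim on all 6 arrays, between -6.71 and -5.77.

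Il1rl1, also called ST2, is the receptor for IL-33 and is carried by mast cells and some lymphocytes. The brighter probe of its membrane variant lay at 1.20, 0.99 and 1.33 on the Nod1 +/- arrays and at 1.25, 1.19 and 0.55 on the Nod1 -/- arrays. The groups overlapped, with Nod1 -/- replicate 3 the lowest (difference 0.18, 95% confidence interval -0.34 to 0.70; adjusted p = 0.587), and without that array the difference was -0.05. It was 0.63 when blocked on slide row (adjusted p = 0.119 by limma) and 0.44 as the mean of the gene's probes (0.339), which did not pass either. The dimmer probe of the same variant lay at -3.14, -3.36 and -2.58 on the Nod1 +/- arrays and at -2.87, -3.93 and -4.39 on the Nod1 -/- arrays, again overlapping (difference 0.70, SE 0.41; adjusted p = 0.281 by limma in a fit over probes). The probe of the soluble variant NM_010743 lay at -5.06, -4.94 and -4.91 on the Nod1 +/- arrays and at -6.74, -5.98 and -6.09 on the Nod1 -/- arrays. Its groups did not overlap, but no array was well above background and 2 of the Nod1 -/- readings were stand-in values, so it has no fold (adjusted p = 0.0559 by limma without the filter). Whether membrane and soluble transcripts differ in their response was not tested.

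The remaining ligands and receptors of the family were mostly dim. Of 11 such genes on the array only Il18r1 and Sigirr could be tested, and neither passed by limma (Sigirr had an unadjusted p under 0.05). Il18r1, the ligand-binding chain for IL-18, lay at -2.11, -1.16 and -1.51 against -2.79, -1.99 and -1.95 (difference 0.65, SE 0.32; adjusted p = 0.204). Sigirr, an inhibitory receptor of the family, lay at -0.20, 0.01 and 0.05 against 0.27, 0.29 and 0.18 (difference -0.29, SE 0.11; adjusted p = 0.105). The other 9 (Il1rl2, Il18rap, the IL-36 genes Il36a, Il36b, Il36g and Il36rn, Il1f10, Il1rapl1 and Il1rapl2) were well above background on at most 1 of the 6 arrays.

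Among genes that mature or release IL-1 cytokines, those that passed split in direction. Of 20 listed, 18 were tested, 5 were higher, 3 lower and 10 did not pass, with a median difference of 0.02 against -0.10 over all tested genes. The shares over all tested genes were 7.66% higher and 11.0% lower. Nlrc4, counted as lower, passed the filter on dim probes through the Nod1 -/- arrays alone, where it was high, which adds to this count. Casp4, the caspase that senses intracellular endotoxin, rose 9.16-fold, from 1.28 ± 0.25 to 4.47 ± 0.06 (difference 3.20, SE 0.15; adjusted p = 0.000391). Gsdmd, the pore-forming protein through which mature IL-1 beta leaves the cell, rose 1.86-fold (adjusted p = 0.00869). Mefv, which encodes the inflammasome sensor pyrin, rose by 2.94 on the log2 scale (adjusted p = 0.012), or by 1.05 with the other background correction, and only 1 of the 3 Nod1 -/- arrays read it well above background. P2rx7, the ATP-gated channel that triggers IL-1 beta release, was 2.34-fold lower (difference -1.23; adjusted p = 0.00373). With both first replicates left out, Gsdmd, Mefv and P2rx7 no longer passed (adjusted p = 0.0686, 0.0532 and 0.054 by limma), and Gsdmd did not pass when blocked on slide row (0.0506).

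Further genes of this list are named after their values were seen. Nlrp1a and Panx1 rose by 0.50 and 0.50 (adjusted p = 0.014 and 0.03), and Nlrc4 was at least 2.07-fold lower, being dim on all Nod1 +/- arrays (0.033). Casp1, the enzyme that cleaves the precursors of IL-1 beta and IL-18, lay at -0.04, 0.03 and 0.09 on the Nod1 +/- arrays and at 0.61, 0.18 and -0.37 on the Nod1 -/- arrays and did not pass (adjusted p = 0.764). Nlrp3, its best-known sensor, was well above background on 1 array and untested. The count of 8 was 4 without Nod1 +/- replicate 1 or Nod1 -/- replicate 2, 5 when replicate 2 or 3 of Nod1 +/- or replicate 1 of Nod1 -/- was left out, and 6 without Nod1 -/- replicate 3.

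Downstream of the receptors, 8 of 26 signalling genes were higher and none lower by limma's adjusted p (9 and 1 at an unadjusted p under 0.05), with a median difference of 0.12. Of all tested genes 7.66% were higher and 11.0% lower by adjusted p. No share over all genes was computed to set beside the unadjusted counts. Irak3, a kinase-dead brake on IRAK signalling, rose 3.09-fold (difference 1.63, SE 0.18; adjusted p = 0.00368). Map3k8, a kinase freed from its NF-kB1 partner by IKK, rose 2.40-fold (adjusted p = 0.00192). Nfkb1 itself rose 2.24-fold and the IKK subunit gene Ikbkb 1.61-fold (adjusted p = 0.00336 and 0.00557). The other 4, named after their values were seen, were Myd88 (1.14), Rela (0.93), Irak4 (0.52) and Map3k3 (0.45). Without Nod1 -/- replicate 2 the count was 5. Ikbkb did not pass when blocked on slide row (adjusted p = 0.0544 by limma), nor did Ikbkb and Nfkb1 with both first replicates left out (0.0935 and 0.0549).

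Genes that IL-1 is known to induce include adhesion molecules, chemokines and NF-kB feedback genes, which NOD1 and tumour necrosis factor induce too. Of 22 listed, 17 were tested by limma, 16 were higher and none lower, and their median difference was 3.46 (3.12 once dim genes are set to their bound). At an unadjusted p under 0.05 none was lower either. Sele, Cxcl2 and Cxcl5 passed the filter on dim probes through the Nod1 +/- arrays alone, where they were high, which adds to this count. Of all tested genes 7.66% were higher. Sele, the endothelial selectin, was at least 26.7-fold higher, and Icam1 and Vcam1, which bind leukocyte integrins, lay at 1.57 ± 0.21 against -2.46 ± 0.13 and at 6.39 ± 0.12 against 3.09 ± 0.18. Nfkbia, the NF-kB inhibitor gene, lay at 6.81 ± 0.09 against 4.41 ± 0.06. The member that did not pass was Ptges, named after its values were seen (difference -0.13; adjusted p = 0.432). The list was drawn up with earlier results of these data known and is no independent evidence of its direction.

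**Figure D4:**
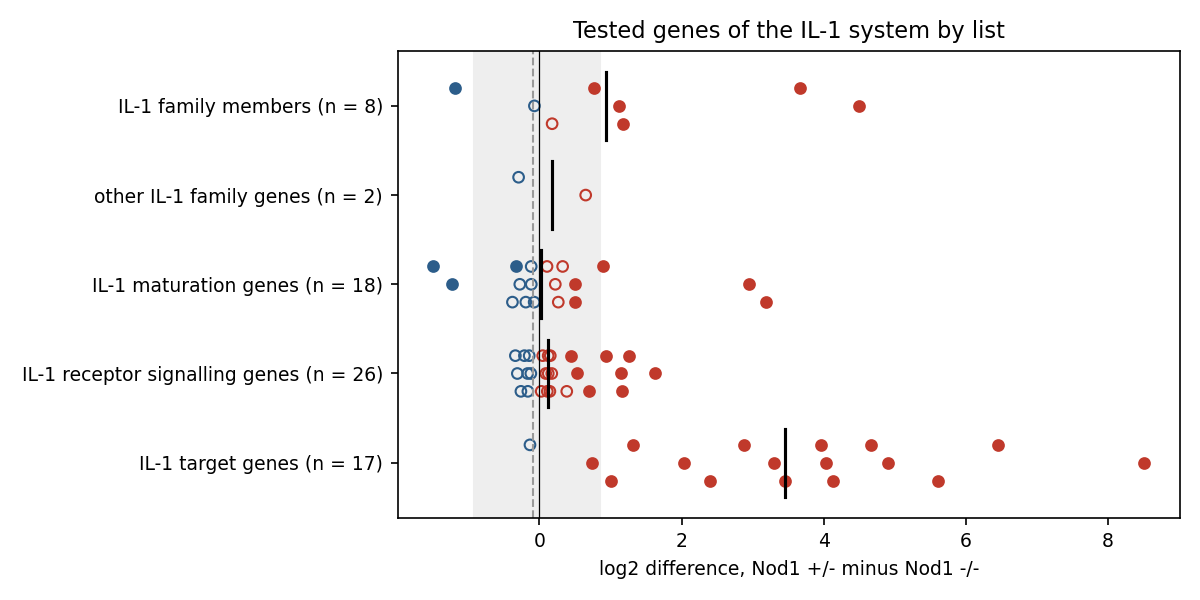
Log2 difference between genotypes (Nod1 +/- minus Nod1 -/-) for each tested gene of the 5 lists; filled points passed an adjusted p of 0.05, red is higher and blue lower in Nod1 +/-, and black bars are list medians. The grey band spans the 5th to 95th percentile of all tested genes (-0.92 to 0.86) and the dashed line is their median. Nearly all target genes lie right of the band, while most maturation genes lie inside it. Of the maturation genes, Casp4, Mefv and Gsdmd lie to its right and P2rx7 and Nlrc4 to its left.

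Il1b and Il1r2 are abundant in neutrophils, and many but not all neutrophil markers were higher too. Of 14 tested neutrophil markers 9 were higher and none lower by limma (10 and 0 at an unadjusted p under 0.05), with a median difference of 2.57. The unadjusted counts have no share over all genes beside them. Mmp9 and Cxcr2 passed the filter on dim probes through the Nod1 +/- arrays alone, where they were high, which adds to this count. Of all tested genes 7.66% were higher. The summed signal of the 15 markers ranged from 278 to 298 on the Nod1 +/- arrays and from 160 to 216 on the Nod1 -/- arrays. Such a sum gives bright probes more weight, and on the Nod1 -/- arrays most of it came from the receptor gene Csf3r. Csf3r lay at 6.92, 6.48 and 7.23 on the Nod1 +/- arrays and at 7.28, 7.08 and 7.60 on the Nod1 -/- arrays and did not pass (difference -0.44; adjusted p = 0.218). The mean log2 level of the 15 markers, in which each probe counts equally, ranged from 0.64 to 1.17 against -1.02 to -0.77. Ly6g, which defines mouse neutrophils, lay at -1.37, -1.01 and -1.62 against -1.62, -2.27 and -2.78 and did not pass (adjusted p = 0.101). Elane, Mpo and Camp did not pass either (differences 0.22, 0.29 and 0.92; adjusted p = 0.499, 0.705 and 0.17 by limma). Fcnb was dim on all 6 arrays and untested. In whole vessels more cells of a type and more RNA per cell cannot be told apart, and the part of these markers in the Il1b and Il1r2 differences was not tested.

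Other markers bear on the remaining members. Their counts stand beside 7.66% higher and 11.0% lower over all tested genes. No share over all genes was computed for an unadjusted p. Of 13 tested monocyte and macrophage markers 1 was higher and 3 lower, and their summed signal ranged from 65.9 to 77.2 on the Nod1 +/- arrays and from 66.9 to 123 on the Nod1 -/- arrays, which overlap. The endotoxin co-receptor gene Cd14 rose by 1.81, while Cx3cr1, Lyve1 and Csf1r fell by 2.05, 1.03 and 0.96. Epithelial cells can also hold IL-18: of 6 tested epithelial markers Krt18 was lower (difference -0.78, adjusted p = 0.0386 by limma) and none higher. At an unadjusted p under 0.05 Dsp was lower too (difference -0.50). Of 6 mesothelial markers Lrrn4 was lower (difference -1.99, adjusted p = 0.0279 by limma) and none higher, at an unadjusted p under 0.05 too. Of 8 tested mast cell markers Kit and Hdc were higher, and the summed signal of the list overlapped between genotypes (65.4 to 71.5 against 44.1 to 80.9), as Il1rl1 did. None of 6 tested markers of T cells and innate lymphoid cells passed by limma, adjusted or not, and Foxp3, Areg, Klrb1c and Ncr1 were dim on all 6 arrays. Of 9 markers of endothelial cells, which can hold IL-33, by limma none passed as higher and 3 were lower (Tek, Tie1 and Cldn5). At an unadjusted p under 0.05 Cdh5 was higher. The summed endothelial signal ranged from 124 to 154 against 150 to 184, and most of it came from Vwf, which did not pass. The mean log2 level of these markers, in which each probe counts equally, ranged from 1.60 to 1.83 against 2.08 to 2.25. Among 7 smooth muscle markers none passed by limma, adjusted or not, and their summed signal overlapped (1037 to 1105 against 1063 to 1123). By limma 2 of 7 fibroblast markers were lower, Lum and Dcn, and 5 did not pass. The summed fibroblast signal ranged from 1134 to 1173 against 1285 to 1315. The mean log2 level of the fibroblast markers ranged from 6.09 to 6.15 against 6.30 to 6.40, so neither overlapped. The genes named here were picked from their lists after their values were seen, and the part of these markers in the results was not tested. All 9 endothelial and 7 smooth muscle markers were well above background on all 6 arrays.

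The tested genes whose levels over the 6 arrays ran most like those of Il1r2, among 18786 genes well above background on all arrays, were Nus1, Nudc and Tapbpl, each with a Pearson correlation of 0.999. Most of that likeness is the split between genotypes, which the 6 arrays share. Their own differences were 0.48, 0.36 and 2.0.

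Sequence upstream of the gene starts was searched because 5 members rose together. RefSeq windows on GRCm38.p6 (250 bases before to 50 after each start) were found for all 10 genes, 15 windows in all. On both strands the NF-kB consensus occurred in 1 window, that of the downstream Il1r1 start, against 8.46% of 32851 windows of all genes. The letters TATAAA occurred in 6 windows of 5 members, against 13.6% of all windows. In Il1b and in the downstream Il33 window the TATAAA match began at positions -31 and -29 from the start. In Il1a, for which no genotype difference can be read, it began at -32. TGANTCA, an AP-1 site, occurred in 2 windows (Il1a and Il1rn, against 7.81%), and the GAAA pair of interferon-response elements (2 copies with any 2 bases between) in 1 (Il1rap, against 3.44%). A match is a description of letters, and its absence from these windows says nothing of a factor. The 250 bases before the start are shown for 3 members that rose and hold such a match, on the strand of the gene, with matches in capitals.
Il1b, chr2:129371140-129371389, minus strand: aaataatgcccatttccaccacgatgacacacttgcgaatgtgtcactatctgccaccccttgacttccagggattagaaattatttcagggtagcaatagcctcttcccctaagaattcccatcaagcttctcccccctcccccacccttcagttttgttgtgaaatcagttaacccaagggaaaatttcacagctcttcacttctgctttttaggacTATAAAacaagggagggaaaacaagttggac
Il33, chr19:29945540-29945789, plus strand: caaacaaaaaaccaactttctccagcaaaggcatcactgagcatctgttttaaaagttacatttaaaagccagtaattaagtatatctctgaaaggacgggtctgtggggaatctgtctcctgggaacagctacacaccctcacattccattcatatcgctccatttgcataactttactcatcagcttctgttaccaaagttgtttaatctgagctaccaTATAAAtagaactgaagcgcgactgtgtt
Il1r1, chr1:40266336-40266585, plus strand: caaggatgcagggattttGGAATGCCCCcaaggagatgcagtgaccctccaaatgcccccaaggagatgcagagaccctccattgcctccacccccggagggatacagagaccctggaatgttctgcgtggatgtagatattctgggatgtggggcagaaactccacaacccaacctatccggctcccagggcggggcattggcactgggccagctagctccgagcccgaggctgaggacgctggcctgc

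Across the series, 4012 of 21478 tested genes passed the threshold, 1646 higher and 2366 lower in Nod1 +/- aortas. With median scaling, which moved the median difference of all genes from -0.10 to 0.01, 2506 passed, 1580 higher and 926 lower, and 6 members passed. Leaving out Nod1 +/- replicate 1 or 2, or Nod1 -/- replicate 1 or 2, also moved the count by over 1.5 times, to between 1460 and 2143. Signal was well above background for 48.6% to 58.4% of probes per array, and no array pair of a genotype was identical.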

How the data were processed

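The deposited scanner files hold 1-colour Cy3 intensity values, already corrected for background. Per the file headers the software was Feature Extraction 10.7.1.1, whereas 9.5.1.1 stands in the submitters' processing notes. The deposited value table, also an intensity table by the authors, holds the same sorted values in every column (median 33.4) and served as an alternative. Control and outlier spots were dropped, then log2 signals were averaged per probe and each array's 75th percentile subtracted. Of 55681 probes, 134 had no usable spot on at least 1 array, and 30166 passed the filter. Each gene is represented by the brightest probe that passed. Genotypes were compared over all genes with limma 3.58.1 in R 4.3.3 and Benjamini-Hochberg adjustment, threshold 0.05, after a check on simulated data. All 10 member symbols matched the RefSeq table. Members and lists were chosen with earlier results of these data known. Named beyond the members were up to 4 passing genes per list by smallest p (2 where none passed), and 3 genes most like Il1r2. Plots used matplotlib 3.10.9. Array number limits the precision. A result on a single listed gene is not reported here.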

Additional observations from a re-analysis of the deposited data

How the results depend on the processing

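Of the 6 members past the threshold, Il1b and Il1r2 passed under all 19 alternatives and all 6 kept their direction; 5 to 6 passed when any single array was left out. The count was 4 when blocked on slide row and 2 with both first replicates left out. Il1rap, never past the threshold, had a difference of 0.0104 with normexp, 0.0328 with median scaling, 0.0361 with array weights (0.0294 in the fit over probes), 0.21 when blocked on slide row, and -0.25 to 0.14 leaving out single arrays; Il1rl1 (0.18) had -0.0466 to 0.31 there, 0.03 with array weights, 0.07 with Xist, 0.28 with median scaling, 0.44 as the mean of its probes and 0.63 when blocked on slide row. Other IL-1 family genes past the threshold numbered 3 without the filter (Il18rap, Il36g and Il1rl2, which were dim), and 1 with array weights (Sigirr), the replicate block (Il18r1) or Xist as a covariate (Il18r1). Maturation genes numbered 5 with median scaling, 4 without the filter, 3 with the slide row, 5 with Xist, 4 to 6 leaving out single arrays and 1 without both first replicates. Signalling genes numbered 5, 4, 5, 5 to 9 and 2 without the filter, with the slide row, with Xist, leaving out single arrays and without both first replicates, and target genes were always within 1.5 times of 16. All genes numbered 2506 with median scaling, 1636 without the filter, 1033 with the slide row, 2281 with Xist, 1460 to 3388 leaving out single arrays and 629 without both first replicates. Whether replicate numbers pair the arrays is not settled. Same-numbered deviations correlated at 0.0829, 0.277 and 0.111. Nod1 +/- replicates 1 and 2 matched the Nod1 -/- array of their own number best, and replicate 3 matched replicate 1 best. The replicate block gave 4040 genes and 6 members. The causes were not tested. Members near background (Il1a, Il1rn, soluble Il1rl1, membrane Il1rap) are limited by signal.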
